A study of Mus musculus with 48 samples.

Results

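The immediate early genes of mouse kidney were followed in animals given D-alanine (D-Ala) or vehicle, through 10 genes chosen by symbol: Nr4a1, Ier3, Ier2, Fos, Jun, Junb, Egr1, Atf3, Btg2 and Dusp1. Each had a row in both deposited tables, so 10 of the 49585 genes in the files are described. D-alanine is the enantiomer of L-alanine, the form found in proteins. The 12 groups were kidneys of D-Ala animals and of vehicle animals, each collected at circadian times CT0, CT4, CT8, CT12, CT16 and CT20, with 4 libraries per group and 48 in all. The labels mark every sample as WT and as kidney, and dose, route, age and sex were not given in the sources used here. Both deposited tables hold 2 libraries per group. That these tables are the 2 runs named in the series text is an inference. The series text speaks of kidneys from different mice, and p-values measure the spread between these libraries.

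Immediate early genes are switched on within minutes of a stimulus, without new protein synthesis, when kinases of the MAP kinase and protein kinase A pathways activate factors such as SRF with its ELK partners and CREB that already sit on their promoters. Many encode transcription factors (FOS, JUN and JUNB, which pair as AP-1, and EGR1, ATF3 and the orphan nuclear receptor NR4A1). Others encode brakes, such as the MAP kinase phosphatase DUSP1 and the antiproliferative BTG2. In kidney they respond to growth factors, hormones, ischaemia and the handling of tissue.

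The RefSeq promoters (build GRCm38.p6) of the 4 members on which the results below turn are shown, since these members differ in the response elements next to their starts. Each is written 5′ to 3′ on the strand of the gene from 250 bases before the RefSeq start, up to the start or to the start of the deposited gene where that lies further upstream. Capitals mark the core of the cAMP response element on either strand (TGACG, or CGTCA as its reverse complement; the full palindrome TGACGTCA holds both, overlapping) and the GC box on either strand (GGGCGG or CCGCCC).
Nr4a1, chr15:101266596-101266845, plus strand: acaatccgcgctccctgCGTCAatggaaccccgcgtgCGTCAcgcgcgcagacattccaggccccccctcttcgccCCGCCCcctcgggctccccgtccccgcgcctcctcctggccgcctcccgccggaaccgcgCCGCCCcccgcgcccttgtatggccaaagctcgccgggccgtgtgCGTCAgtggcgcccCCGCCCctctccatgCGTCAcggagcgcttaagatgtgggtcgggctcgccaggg
Ier3, chr17:35821463-35821683, plus strand: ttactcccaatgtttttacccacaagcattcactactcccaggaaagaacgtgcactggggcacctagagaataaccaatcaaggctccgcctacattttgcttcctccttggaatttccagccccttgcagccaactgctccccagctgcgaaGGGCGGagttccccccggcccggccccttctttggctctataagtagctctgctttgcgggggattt
Jun, chr4:95052223-95052472, minus strand: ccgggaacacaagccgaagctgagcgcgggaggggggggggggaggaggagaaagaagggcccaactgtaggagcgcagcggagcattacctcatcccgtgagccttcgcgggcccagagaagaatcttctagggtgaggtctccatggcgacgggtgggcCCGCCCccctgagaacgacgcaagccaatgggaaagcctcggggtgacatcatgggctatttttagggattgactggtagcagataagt
Dusp1, chr17:26508520-26508722, minus strand: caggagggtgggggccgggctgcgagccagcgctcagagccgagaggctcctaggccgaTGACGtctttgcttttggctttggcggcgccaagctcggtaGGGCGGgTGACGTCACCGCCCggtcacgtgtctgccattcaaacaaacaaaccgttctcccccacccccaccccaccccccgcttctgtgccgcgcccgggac
The Nr4a1 stretch held 4 of the TGACG cores, and the Dusp1 stretch held the full palindrome at positions -143 to -136 between 2 GC boxes, plus a further core. No such core was found in the Ier3 or Jun stretch, which held 1 GC box each. Among 27025 RefSeq promoters of 250 bases, 17.9% held the core, 1.62% the full palindrome and 32.9% the GC box on either strand. The promoters of Ier2, Egr1 and Atf3 were not read, and nothing is said of their elements here. Of the 7 members that were read, Btg2 also held the palindrome, and Fos and Junb held the core without it. The SRF element called the CArG box was in none of these 7 stretches and in 1.4% of all promoters, and the AP-1 site TGANTCA was likewise in none, against 6.87% of all. These are matches of letters in a short window and were not tested for use.

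The libraries held between 7626057 and 14403234 fragments each (median 11601134.5). The authors deposited FPKM, fragments scaled to gene length and library total, so that levels of genes can be compared per length. On that scale Ier3, a stress-induced regulator of survival and MAP kinase signalling, was the highest member, at a mean of 22.4 FPKM over the 48 libraries, followed by Dusp1 at 14.0 FPKM. Ier2, a nuclear protein of the early response, Junb, Jun and Btg2 lay between 5.97 and 8.58 FPKM. Nr4a1 averaged 2.03 FPKM, Egr1 1.06 FPKM, Atf3, a stress-induced repressor, 0.707 FPKM and Fos 0.358 FPKM. Behind these levels stood 2 to 40 fragments per library for Fos and 4 to 35 for Atf3, against 129 to 644 for Ier3.

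**Figure D1:**
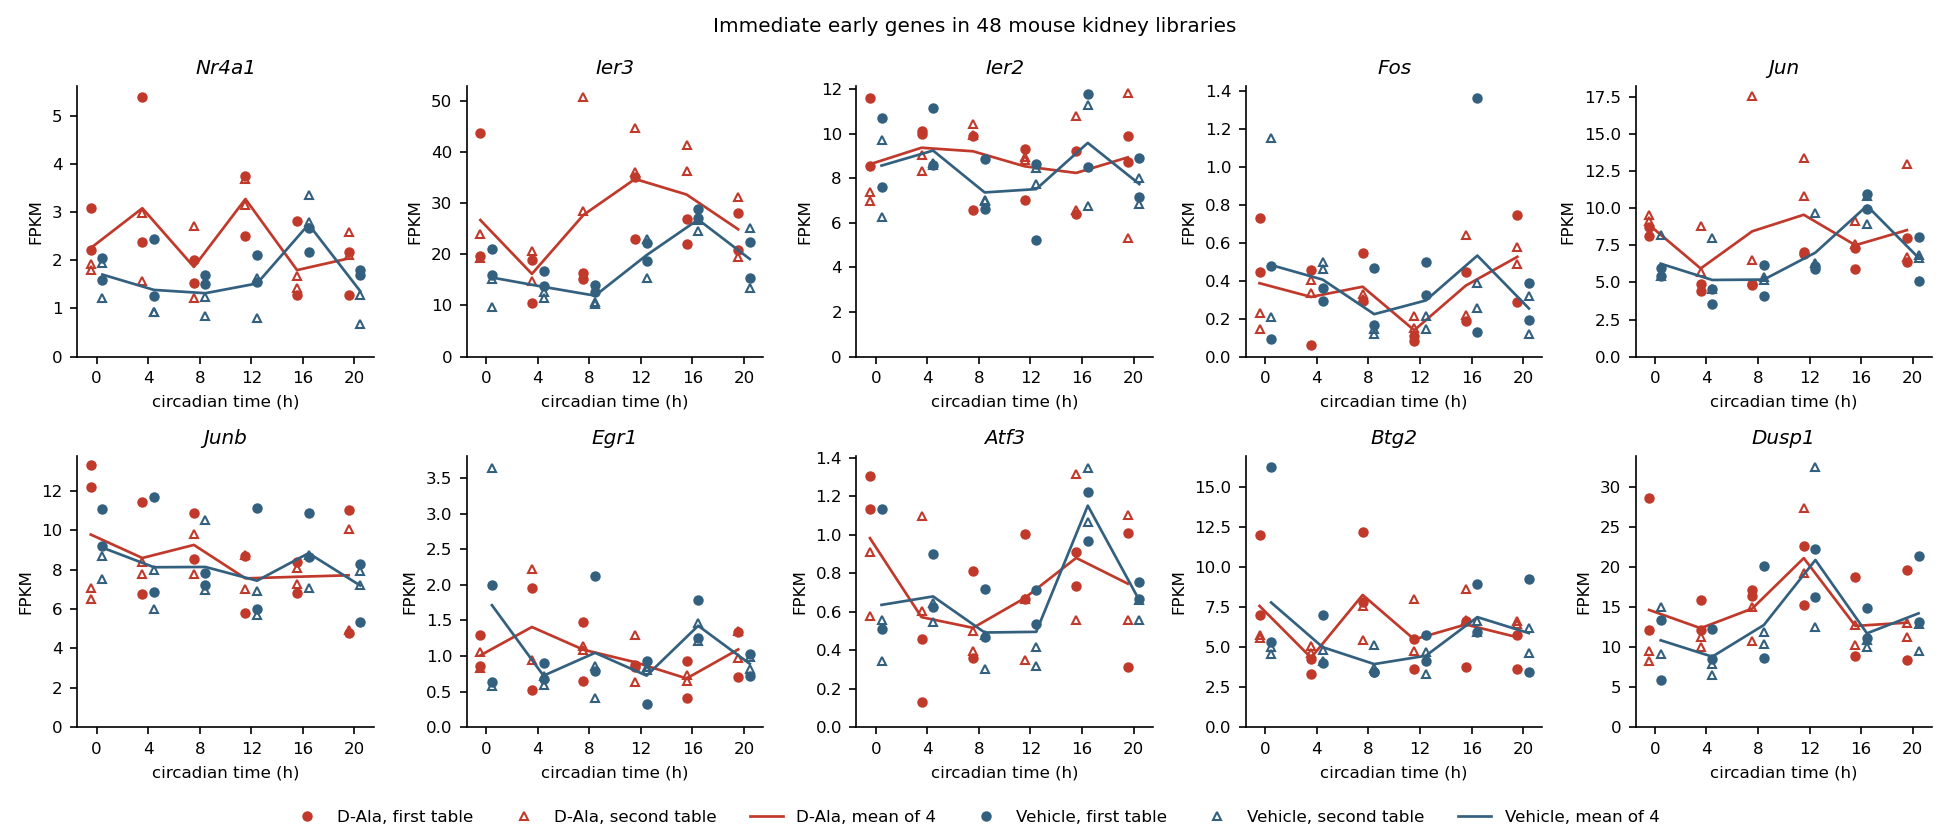
FPKM (y axis, from 0) of the 10 immediate early genes against circadian time in hours (x axis); each point is 1 library, red D-Ala and blue vehicle, filled for the first table and open for the second, and each line joins the means of 4 libraries. Ier3 reached 50.9 FPKM in 1 D-Ala library at CT8, and its vehicle libraries were highest at CT16.

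In the order of group means, neighbours could not be separated for any member: in all 11 neighbouring pairs of the 12 groups, the ranges of the 4 libraries overlapped. The ends of the order did separate for 6 of the 10. These ends were picked as the highest and lowest of 12 means, which favours separation and a large ratio. The share of all genes with separate ends was not computed. Ier3 stood highest in D-Ala at CT12 (34.8 ± 8.96 FPKM, SD, n = 4) and lowest in vehicle at CT8 (11.9 ± 1.77 FPKM), a 2.92-fold ratio of means. Nr4a1 had the same extremes, 3.28 ± 0.576 FPKM in D-Ala at CT12 and 1.32 ± 0.371 FPKM in vehicle at CT8. The highest and lowest groups overlapped for Ier2, Fos, Junb and Egr1. Fos had an FPKM of at least 1 in 2 libraries, both vehicle, and did not pass the filter of the test across genes (at least 1 FPKM in at least 4 libraries), so that 9 members were tested. Egr1 passed it through 10 D-Ala and 8 vehicle libraries and Atf3 through 7 D-Ala and 4 vehicle libraries.

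The main question was which immediate early genes differ between D-Ala and vehicle kidneys. Over the 6 times, 2 of the 9 tested members rose, Ier3 and Nr4a1, and 0 fell (limma with Benjamini-Hochberg adjustment over 14922 genes, threshold 0.05). In the same comparison 1.59% of all genes tested were called higher and 1.74% in either direction. The members were chosen with earlier results of these data known, so their count and median are not independent of these data. At an unadjusted p under 0.05 were 3 of the 9 members, Jun being the third, and 20.5% of all genes. The median of the 9 log2 changes was 0.15, against 0.056 over all genes. Of the 9 changes 8 lay above 0, as did 76.3% of all genes; Ier2, Junb and Atf3 turned below 0 with quantile normalization, and Junb and Atf3 with centring on the library median.

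Ier3 at CT0 had 19.7, 43.8, 19.3 and 23.97 FPKM in D-Ala kidneys, against 21.1, 15.97, 9.63 and 15.1 FPKM in vehicle kidneys. Its values at CT8 were 16.3, 15.2, 50.9 and 28.5 FPKM in D-Ala kidneys, against 12.7, 14.1, 10.6 and 10.3 FPKM in vehicle kidneys. At CT12 they were 35.2, 23.0, 36.0 and 44.8 FPKM in D-Ala kidneys, against 22.3, 18.7, 23.1 and 15.4 FPKM in vehicle kidneys. D-Ala was thus wholly above vehicle at CT8, while at CT0 and CT12 single libraries overlapped. At CT4 the values ran from 10.5 to 20.6 FPKM in D-Ala kidneys and from 11.4 to 16.8 FPKM in vehicle kidneys, at CT16 from 22.1 to 41.4 FPKM and from 24.5 to 28.9 FPKM, and at CT20 from 19.5 to 31.3 FPKM and from 13.4 to 25.2 FPKM. The groups overlapped widely at these 3 times. Over all times Ier3 averaged 27.0 ± 10.8 FPKM in D-Ala kidneys and 17.8 ± 5.94 FPKM in vehicle kidneys (SD, n = 24 each). The log2 change was 0.54 ± 0.11 (SE), 1.46-fold on the FPKM + 1 scale, with an adjusted p of 0.013 in limma, and D-Ala had the higher mean in 10 of 12 pairs of time and table. Ier3 (ENSMUSG00000003541) lies at chr17:35821684-35822923 in GRCm38.

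Nr4a1 (ENSMUSG00000023034, chr15:101266846-101274792) encodes a ligand-independent nuclear receptor. At CT4 it had 2.39, 5.39, 1.57 and 2.98 FPKM in D-Ala kidneys, against 1.26, 2.44, 0.921 and 0.917 FPKM in vehicle kidneys. At CT12 it had 3.74, 2.51, 3.70 and 3.15 FPKM in D-Ala kidneys, against 2.11, 1.55, 1.62 and 0.793 FPKM in vehicle kidneys. The CT12 groups did not overlap, and at CT4 1 vehicle library lay inside the D-Ala range. At CT16 the order turned: 2.81, 1.28, 1.42 and 1.68 FPKM in D-Ala kidneys, against 2.17, 2.68, 2.79 and 3.36 FPKM in vehicle kidneys. Over the 6 times Nr4a1 averaged 2.39 ± 0.974 FPKM in D-Ala kidneys and 1.67 ± 0.683 FPKM in vehicle kidneys (SD, n = 24 each). The log2 change was 0.33 ± 0.09 (SE; adjusted p = 0.0342 in limma), with D-Ala higher in 9 of 12 pairs. In limma voom on the fragments recovered from the FPKM steps, where low genes are not damped by a pseudocount, the change was 0.51 ± 0.14 (adjusted p = 0.0451). The gene length behind these fragments was itself found from the steps, and a doubled length matched them equally well, so the fragments of Nr4a1, and with them the weights of this fit, may be too low by a factor of 2. The same holds for the fragments of Dusp1. The call for Nr4a1 was lost without any 1 of 11 libraries, D-Ala CT0 replicate 2 among them, with adjusted p between 0.0506 and 0.0596 in limma. The others were D-Ala CT4 replicate 4, CT12 replicates 3 and 4 and CT20 replicate 4, and Vehicle CT0 replicate 2, CT4 replicate 3, CT12 replicates 2 and 4, CT16 replicate 2 and CT20 replicate 3. Across these 11 fits 93 to 203 of all genes were called, against 259 with every library. The change of Nr4a1 in them was 0.312 to 0.331. The call for Ier3 held without any single library.

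Both calls depended on how libraries were scaled to each other. With each library centred on its median, Ier3 was at 0.47 (adjusted p = 0.0661) and Nr4a1 at 0.26 (adjusted p = 0.241), and 23 genes were called in all, against 259 as deposited. Leaving out all libraries of CT0 or of CT8 also ended both calls. Ier3 was then at 0.51 (adjusted p = 0.0994 in limma) and 0.45 (adjusted p = 0.133). Nr4a1 was at 0.35 (adjusted p = 0.162) and 0.34 (adjusted p = 0.166). Over all genes 2 were called without CT0 and 3 without CT8, so few genes of any kind kept a call.

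The AP-1 members did not pass the test. Jun (ENSMUSG00000052684, chr4:95049034-95052222), the main partner in AP-1, averaged 8.14 ± 3.10 FPKM in D-Ala kidneys and 6.74 ± 2.12 FPKM in vehicle kidneys (SD, n = 24 each), a log2 change of 0.22 ± 0.09 (SE; adjusted p = 0.153 in limma). With rescaling to TPM, where 2479 genes were called, its change was 0.29 and it passed, at an adjusted p of 0.0414. Junb, which opposes Jun at some targets, was at 8.43 ± 2.21 FPKM in D-Ala kidneys and 8.14 ± 1.82 FPKM in vehicle kidneys. Fos ran from 0.06 to 0.747 FPKM in D-Ala kidneys (median 0.316) and from 0.093 to 1.36 FPKM in vehicle kidneys (median 0.307), and the groups covered each other. Without the filter its log2 change was 0.00 ± 0.07 (SE; adjusted p = 0.996), and voom gave 0.03 ± 0.27 (adjusted p = 0.965). Jun shares 689 bases with the antisense gene Junos and Junb shares 351 bases with Prdx2 on the opposite strand. Whether counting used strand was not given, so these fragments cannot be told apart.

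Among the other factors, Egr1, a zinc finger activator, averaged 1.03 ± 0.429 FPKM in D-Ala kidneys and 1.09 ± 0.713 FPKM in vehicle kidneys, and Atf3 0.728 ± 0.330 FPKM in D-Ala kidneys and 0.686 ± 0.286 FPKM in vehicle kidneys (SD, n = 24 each). Both log2 changes lay within 0.03 of 0, with SEs of 0.10 and 0.07. Of the brakes, Dusp1 (ENSMUSG00000024190, chr17:26505590-26508519) had 14.8 ± 5.65 FPKM in D-Ala kidneys and 13.2 ± 5.95 FPKM in vehicle kidneys, and Btg2 had 6.29 ± 2.31 FPKM in D-Ala kidneys and 5.66 ± 2.77 FPKM in vehicle kidneys. Their log2 changes, 0.17 ± 0.12 and 0.15 ± 0.12 (SE), did not pass (adjusted p = 0.424 and 0.461 in limma), and Btg2 had the higher mean in D-Ala at 2 of 6 times and a change of 0.006 without CT8. Neither did Ier2 pass, at 0.07 ± 0.08 (adjusted p = 0.603).

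The 2 tables were then compared. In the second table Ier3 ran from 14.8 to 50.9 FPKM in D-Ala kidneys (median 29.9) and from 9.63 to 26.8 FPKM in vehicle kidneys (median 14.3), a log2 change of 0.85 ± 0.13 (SE; adjusted p = 0.035 in limma on that table). In the first table it ran from 10.5 to 43.8 FPKM in D-Ala kidneys (median 21.5) and from 12.7 to 28.9 FPKM in vehicle kidneys (median 17.7), and the change was 0.23 ± 0.13 (adjusted p = 0.628). The difference between the tables was 0.62 ± 0.21 (unadjusted p = 0.00534), the lowest p among the 9 members, and did not pass adjustment over all genes (adjusted p = 1). In that interaction 0 of the 14922 genes passed (0%), and 573 (3.84%) had an unadjusted p under 0.05. Nr4a1 was at 0.42 ± 0.11 in the second table and 0.25 ± 0.12 in the first, and Jun at 0.38 ± 0.15 and 0.06 ± 0.08. In neither table alone did Nr4a1 pass (adjusted p = 0.0874 in the second and 0.627 in the first). The share of FPKM on mitochondrially encoded genes differed both between tables and between treatments, at 17.0 ± 1.36% in D-Ala and 19.9 ± 1.95% in vehicle in the second table and 37.4 ± 4.33% and 41.4 ± 3.38% in the first (SD, n = 12 each). With this share as a covariate Ier3 was at 0.44 (adjusted p = 0.471) and Nr4a1 at 0.31 (adjusted p = 0.53), and 0 of all genes were called.

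**Figure D2:**
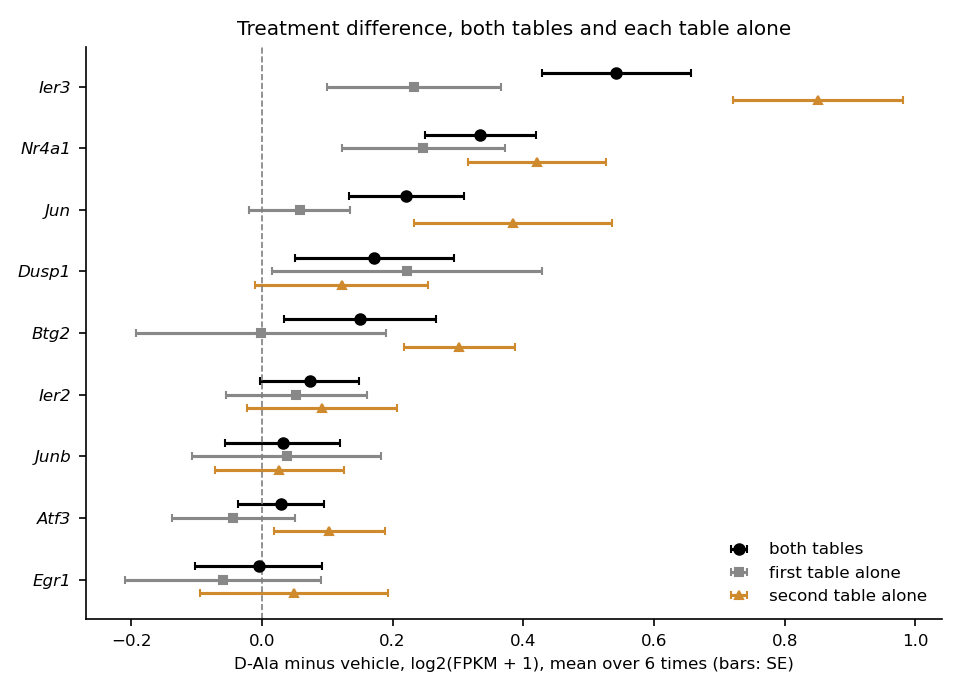
D-Ala minus vehicle in log2(FPKM + 1), averaged over the 6 times (x axis), for the 9 tested members (y axis); black circles use both tables, grey squares the first table alone and orange triangles the second, with bars of 1 SE and a dashed line at 0. Ier3 lies at 0.54, with 0.85 in the second table and 0.23 in the first.

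Single times were examined next. At each of the 6 times 0 of the 9 tested members passed limma's adjusted threshold, where 1.14% of genes were called at CT0 and 0% at each other time. Unadjusted p-values under 0.05 were found for Ier3 and Jun at CT0, Nr4a1 at CT4, Ier3 and Btg2 at CT8, Nr4a1 and Ier3 at CT12, Nr4a1 and Egr1 at CT16 and no member at CT20. Such p-values were found for 22% of all genes at CT0, 2.55% at CT4, 14.8% at CT8, 2.27% at CT12, 4.74% at CT16 and 2.57% at CT20. The highest member change was that of Ier3 at CT8, 0.996 ± 0.28 (SE; unadjusted p = 0.00103, adjusted p = 0.272). Btg2 at CT8 had 12.2, 7.82, 5.47 and 7.59 FPKM in D-Ala kidneys, against 3.46, 3.44, 3.73 and 5.14 FPKM in vehicle kidneys, with every D-Ala library above every vehicle library. The same held for Ier3 at this time and for 6.15% of all genes tested. At CT12 Nr4a1 did not overlap in the same direction, as did 0.911% of all genes.

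At CT16 most members lay the other way. Of the 9 tested, 2 had a log2 change above 0 and 7 below, with a median of -0.20, against 62.5% above 0 and a median of 0.04 over all genes. Egr1 had 0.936, 0.413, 0.65 and 0.737 FPKM in D-Ala kidneys, against 1.78, 1.25, 1.21 and 1.47 FPKM in vehicle kidneys, without overlap. Groups fully apart in this direction at CT16 were seen for 0.375% of all genes tested. Jun had 5.92, 7.35, 9.16 and 7.61 FPKM in D-Ala kidneys, against 10.95, 9.97, 10.8 and 8.93 FPKM in vehicle kidneys, and 1 D-Ala library exceeded the lowest vehicle library. The log2 changes at CT16 were -0.53 ± 0.24 for Egr1, -0.44 ± 0.21 for Nr4a1 and -0.40 ± 0.22 for Jun (SE; adjusted p = 0.991 for each in limma), and that of Ier3 was 0.20 ± 0.28. The changes above 0 numbered 8 of 9 at CT0 (69.5% of all genes), 7 at CT4 (48.7%), 9 at CT8 (71.9%), 9 at CT12 (60.4%) and 7 at CT20 (63.3%). Whether the difference depended on time was tested by the treatment by time interaction, where the p of Nr4a1 was 0.00272 before adjustment and 0.965 after it in limma. In that test 0 members passed, as did 0% of all genes, with 527 genes (3.53%) at an unadjusted p under 0.05.

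**Figure D3:**
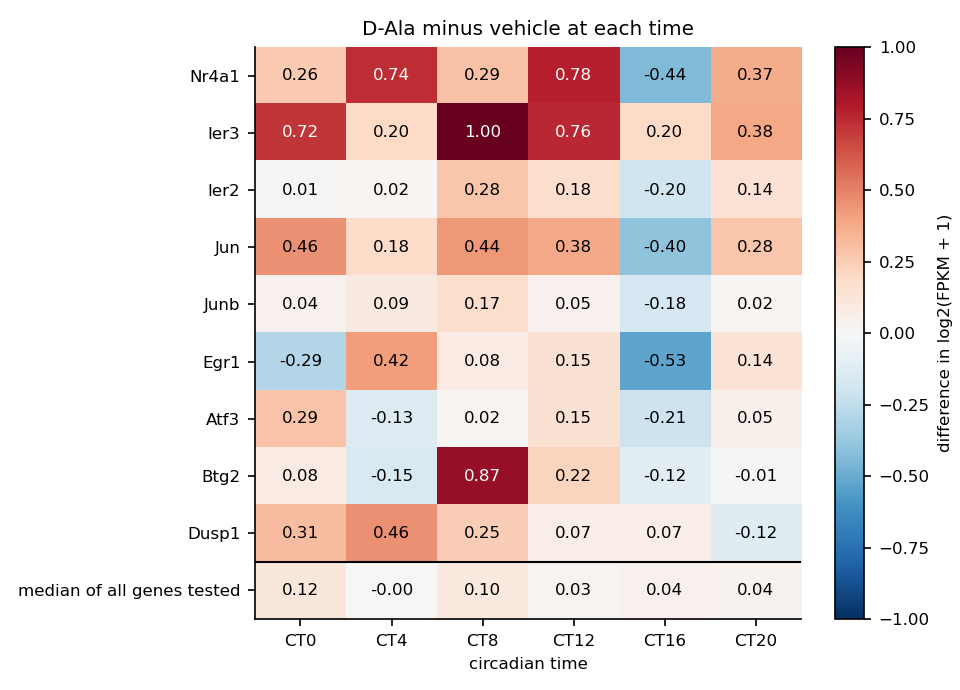
D-Ala minus vehicle in log2(FPKM + 1) at each circadian time (columns) for the 9 tested members (rows) and, below the line, the median of all genes tested; red is higher and blue lower in D-Ala, and the number in each cell is the difference. At CT16 Nr4a1, Jun and Egr1 lie between -0.53 and -0.40, while Ier3 at CT8 lies at 0.996, drawn as a rounded value.

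The time course was read as a 24 h cosine within each treatment. In D-Ala 0 of the 9 members passed the rhythm test, and Ier3 came nearest, with an amplitude of 0.40 ± 0.12 (SE) on the log2 scale, a peak at CT14.8 and an adjusted p of 0.0645 in limma. In vehicle 2 passed: Ier3, with an amplitude of 0.48 ± 0.12, a peak at CT16.5 and an adjusted p of 0.0147, and Jun, with 0.38 ± 0.09, a peak at CT16.5 and an adjusted p of 0.0172. Over all genes 8.3% were called rhythmic in D-Ala and 9.77% in vehicle, and the counts of 0 and 2 of 9 stand against those shares. In the vehicle libraries of CT16 Ier3 had 27.1, 28.9, 24.5 and 26.8 FPKM, all above the 10.3 to 14.1 FPKM of CT8. The Ier3 call in vehicle was lost without CT16 (adjusted p = 0.319), CT8 (0.0639) or CT12 (0.0506), in the first table alone (0.329) and with the times as a factor (0.0683). The Jun call was lost without CT16 (0.432), CT4 (0.0694) or Vehicle CT16 replicate 1 (0.0563), in the second table alone (0.405) and with no table term (0.0754). Leaving out the time of the peak weakens a cosine fit by construction. In vehicle CT16 was the time of the highest mean for 6 of the 10 members (Nr4a1, Ier3, Ier2, Fos, Jun and Atf3). In D-Ala it was so for 0 of 10, with CT12 the highest for Nr4a1, Ier3, Jun and Dusp1. The shares of all genes with their highest mean at these times were not computed, and a difference between these counts was not tested. Fos in vehicle at CT16 had a median of 0.32 FPKM and a maximum of 1.359 FPKM. For Ier2 the vehicle libraries of CT16 and CT8, its highest and lowest groups, overlapped.

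The difference in rhythm between the treatments passed for 0 of the 9 members and for 0% of all genes in limma, and 353 genes (2.37%) had an unadjusted p under 0.05. Among the members the lowest unadjusted p was that of Nr4a1, 0.0924. A rhythm called in vehicle and not in D-Ala is therefore not shown to differ between them. With both treatments averaged, 3 members were rhythmic, against 25.9% of all genes: Ier3 (peak CT15.8, adjusted p = 0.000514), Jun (peak CT16.6, adjusted p = 0.00988) and Dusp1 (peak CT12.6, adjusted p = 0.0413). The swing between peak and trough was 1.81-fold for Ier3, 1.43-fold for Jun and 1.501-fold for Dusp1 on the FPKM + 1 scale. Dusp1 at CT12 had 15.2, 22.7, 19.2 and 27.4 FPKM in D-Ala kidneys, against 22.3, 16.2, 32.5 and 12.6 FPKM in vehicle kidneys, with the treatments intermixed. At CT4 it had 12.2, 15.9, 11.3 and 10.1 FPKM in D-Ala kidneys, against 12.3, 8.52, 6.57 and 7.85 FPKM in vehicle kidneys. The Dusp1 call was lost without any 1 of 18 libraries, 10 of D-Ala and 8 of vehicle from CT0, CT4, CT8, CT12 and CT16, with adjusted p between 0.0501 and 0.0934. It was also lost in the first (0.594) or second table alone (0.0512), with no filter (0.0784), TPM (0.0755) and no table term (0.0747). Leaving out CT4 (0.154), CT8 (0.066) or CT12 (0.751) ended it as well. The call for Jun was lost in the second table alone (adjusted p = 0.305) and without CT4 (0.165) or CT16 (0.0751), and that for Ier3 in the first table alone (0.0519). Atf3 was at an adjusted p of 0.0696, and the other 5 tested members were above 0.4. Atf3 passed without CT20 (0.0133), and Junb passed with the inner medulla score (0.0452) or the endothelial score (0.0183) as a covariate.

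Replicate libraries of a group differed more for 8 of the 9 tested members than for most genes of like level. The residual SD on the log2 scale was 0.44 for Dusp1, 0.42 for Btg2 and 0.41 for Ier3, above 94.4%, 93.6% and 94.2% of the 500 genes nearest in mean level. Jun, Junb and Ier2 stood above 87.6%, 86.8% and 79.2% of their neighbours, Egr1 and Nr4a1 above 75% and 73%, and Atf3 above 35.6%. The median over all genes was 0.20. Single libraries show this spread: D-Ala CT8 replicate 3 held both the highest Ier3 value, 50.9 FPKM, and the highest Jun value, 17.5 FPKM, where its 3 companions had 15.2 to 28.5 FPKM of Ier3 and 4.84 to 6.53 FPKM of Jun. Without it, Ier3 was rhythmic in D-Ala, at an adjusted p of 0.026.

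**Figure D4:**
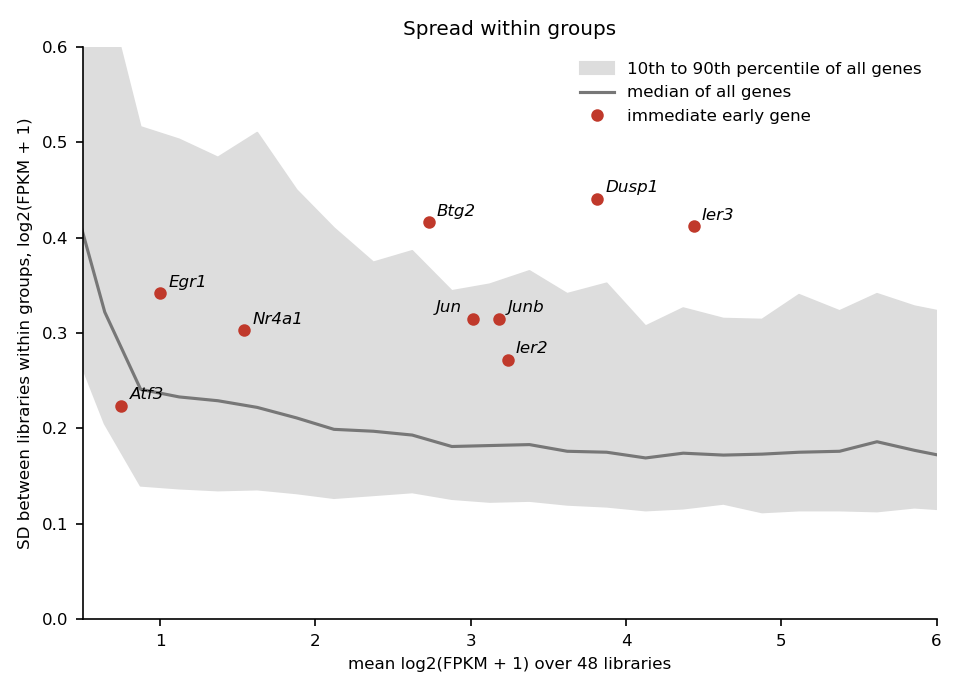
SD between libraries within groups (y axis, log2(FPKM + 1)) against the mean level (x axis, log2(FPKM + 1)); the grey band covers the 10th to the 90th percentile of all genes tested and the grey line their median, in bins of level, and red points are the 9 tested members. Dusp1, Btg2 and Ier3 lie at 0.41 to 0.44, above the band.

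To see whether the members moved together between kidneys treated alike, deviations from the mean of the 2 libraries of 1 treatment, time and table were correlated over 24 such library pairs. Of the 45 pairs of members 39 had a positive r, with a median of 0.28. The r of pairs of other genes was not computed, so whether this exceeds the level of all genes was not tested. The permutation test asks only whether r differs from no correlation. Ier3 and Egr1 passed the permutation test of 100000 random swaps within pairs, adjusted over the 45 (Pearson's r = 0.56, p = 0.0006, adjusted p = 0.027; Spearman's rho = 0.62, p = 0.00036, adjusted p = 0.0162; permutation, two-sided), with the same direction in 20 of 24 library pairs. Leaving out the 2 libraries farthest from the centre in Ier3 gave r = 0.57. Nr4a1 with Ier3 (r = 0.66, p = 0.00362; rho = 0.64, p = 0.00449) and Ier3 with Jun (r = 0.58, p = 0.00291; rho = 0.58, p = 0.00515) had adjusted permutation p-values of 0.0543 for r and 0.0772 for rho, just short of the threshold. Without the 2 libraries farthest in Nr4a1, r for Nr4a1 with Ier3 was 0.61. Without the 2 farthest in Ier3, r for Ier3 with Jun was 0.63. Leaving out libraries by the other gene of a pair was not done. Among the 3 AP-1 genes r was 0.11 for Fos with Jun, 0.28 for Fos with Junb and 0.015 for Jun with Junb, and none passed the test, with Fos resting on a median of 8 fragments per library. Pairs called numbered 2 within the first table and 0 within the second, on 12 library pairs each.

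**Figure D5:**
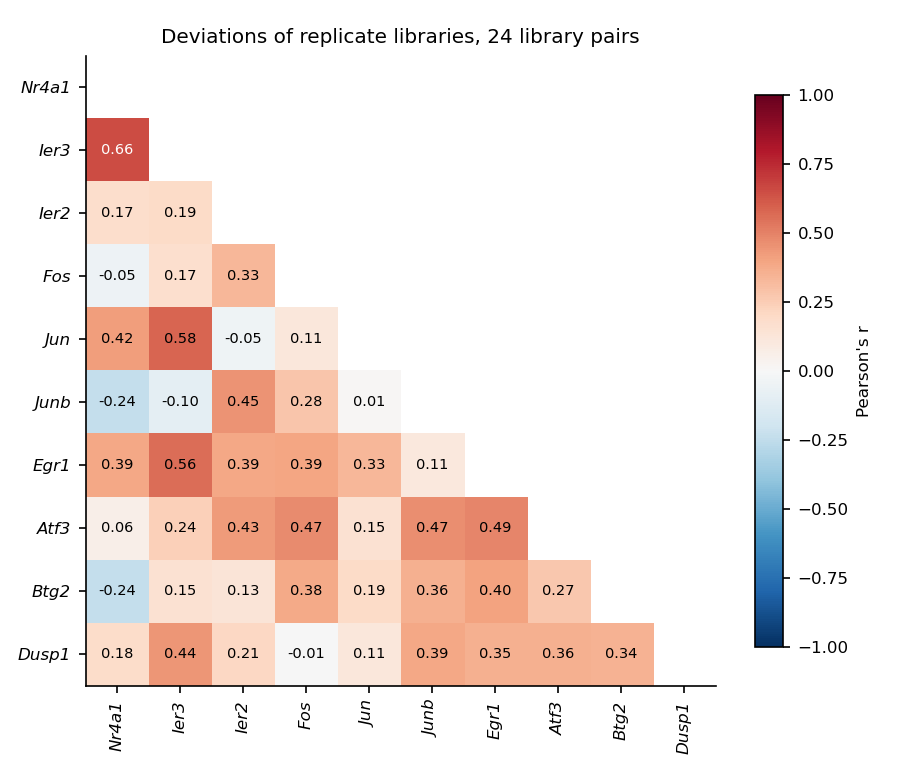
Pearson's r between the 10 members (rows and columns) of the deviations of 24 pairs of replicate libraries, red positive and blue negative, with the value in each cell. The highest values are in the Ier3 row and column, 0.66 with Nr4a1, 0.58 with Jun and 0.56 with Egr1.

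The other genes of the pathway were read in the same comparison over the 6 times, where 1.59% of all genes were called higher and 76.3% lay above 0. Of 44 other immediate early and rapidly induced genes 36 were tested, 1 rose and 0 fell in limma, with 33 above 0 and a median log2 change of 0.14. The gene that rose was Mcl1, an antiapoptotic BCL2 family member, at 33.5 ± 2.63 FPKM in D-Ala kidneys and 30.4 ± 2.92 FPKM in vehicle kidneys (log2 change 0.14 ± 0.04, adjusted p = 0.0321). Plk3, a stress kinase, Ctgf, a matricellular growth factor, and Klf2, a factor of flow-exposed endothelium, were at 0.27, 0.28 and 0.22 and did not pass (adjusted p = 0.064, 0.0895 and 0.0999). Of 25 kinases and factors upstream, all tested, 2 rose and 0 fell, with 24 above 0 and a median of 0.10. Srf, the serum response factor, had 7.14 ± 1.66 FPKM in D-Ala kidneys and 5.73 ± 1.02 FPKM in vehicle kidneys (0.27 ± 0.06, adjusted p = 0.013 in limma). Mapk14, the p38 kinase, and Prkaca, the catalytic subunit of protein kinase A, were at 0.10 and 0.09 and did not pass (adjusted p = 0.0914 and 0.114). Of 13 other AP-1 and ATF family factors 11 were tested and 0 passed. Atf4, a factor of the integrated stress response, was at 0.23, Atf5 at 0.34, Atf6 at 0.17 and Atf7 at 0.10, with adjusted p of 0.0691 or more.

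Tissue markers are given beside these results. Of the markers tested 0 passed in limma, and 76.3% of all genes lay above 0. An unadjusted p under 0.05 was found for 4 of 4 adipocyte, 5 of 7 endothelial and 3 of 5 fibroblast markers. It was found for 1 of 4 smooth muscle and 1 of 5 red cell markers, and for 0 in each other list tested, against 20.5% of all genes. The proximal tubule list summed to 1981 to 4345 FPKM in D-Ala kidneys and 2152 to 4218 FPKM in vehicle kidneys. All 7 endothelial markers lay above 0 in D-Ala minus vehicle, 0 of them called, and their sum ran from 52.6 to 179.7 FPKM in D-Ala kidneys (median 72.5) and from 45.2 to 113.2 FPKM in vehicle kidneys (median 59.9). Of 6 adipocyte markers 4 were tested and all 4 lay above 0, 0 called, with a sum of 7.39 to 70.3 FPKM in D-Ala kidneys (median 15.8) and 6.49 to 28.1 FPKM in vehicle kidneys (median 11.4). All 5 fibroblast markers and all 4 smooth muscle markers also lay above 0, with median log2 changes of 0.19 and 0.20, against 0.16 for the endothelial and 0.36 for the adipocyte list. Medians were -0.039 for lymphocyte, -0.02 for neutrophil, -0.037 for thick ascending limb and -0.01 for principal cell markers. They were 0.259 for inner medulla, 0.108 for red cell, 0.094 for distal convoluted tubule and 0.076 for macrophage markers. Proximal tubule, podocyte and intercalated cell markers had 0.065, 0.023 and 0.017. Fibroblast markers summed to 13.3 to 46.6 FPKM in D-Ala kidneys (median 25.7) and 11.7 to 35.2 FPKM in vehicle kidneys (median 21.8), and smooth muscle markers to 38.6 to 123.9 FPKM in D-Ala kidneys (median 52.7) and 30.7 to 94.8 FPKM in vehicle kidneys (median 45.6). In bulk RNA a change in the number of such cells and a change in RNA per cell cannot be told apart. With the endothelial score as a covariate Ier3 was at 0.49 (adjusted p = 0.0411 in limma) and Nr4a1 at 0.34 (adjusted p = 0.0603). With the adipocyte score Ier3 was at 0.50 (adjusted p = 0.0923) and Nr4a1 at 0.32 (adjusted p = 0.14). Over all genes 189 were called with the endothelial score and 7 with the adipocyte score, against 259 without a covariate. The library D-Ala CT0 replicate 2 stood apart, with the highest principal cell (3023 FPKM) and inner medulla (696.7 FPKM) sums of all. It also had the highest Ier3 value of its group, 43.8 FPKM, and the highest Dusp1 value of all D-Ala libraries, 28.7 FPKM. Without this library Ier3 was at 0.50 (adjusted p = 0.0167) and Dusp1 at 0.12, and Ier3 was rhythmic in D-Ala (adjusted p = 0.0108). The part of these cell types in the results was not tested further.

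The genes whose pattern was most like the mean of the 10 members were found over the 48 libraries, from values centred within each table. The 8 named non-members with the highest Pearson's r were Marveld1 (0.72), Ctsk (0.72), Esyt1 (0.71), Cdc42ep4 (0.71), Setd7 (0.71), Gata3 (0.71), Epha2 (0.70) and Csnk1e (0.70). The members themselves correlated with their own mean at 0.41 (Dusp1) to 0.695 (Ier3). The 8 genes lay above this range, but they were picked for the highest r among the named genes tested. These r values are a description, and the libraries share depth and tissue composition.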

How the data were processed

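RNA was measured in 48 mouse kidney libraries made with a SMARTER mRNA kit after column extraction, per the labels' protocols. The authors deposited FPKM values in 2 tables. GRCm38 (mm10) is the build named in the submitters' processing notes. The aligner and counter were not given in the sources used here. Fragments were recovered from the FPKM steps (96.99% to 97.64% of values under 20 fragments whole within 0.05). All 72 pairs of replicate libraries differed beyond sampling noise (chi-square per gene of at least 5.18). Tests ran in limma 3.58.1 (R 4.3.3; empirical Bayes with trend, two-sided) on log2(FPKM + 1) of 14922 genes with at least 1 FPKM in at least 4 libraries. The model had a mean per group plus an additive table effect, and p-values were adjusted by Benjamini-Hochberg with a threshold of 0.05. This scale understates changes of low genes. Correlations used numpy 2.4.6 as described beside them; fits and correlations were tested on simulated data.

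The members and lists were chosen with earlier results of these data known. Named from other lists were up to 4 genes with the smallest p over the 6 times and any that passed, except 1 gene that is not reported here; the 8 similar genes follow a rule of highest r. Tissue markers were those of 16 lists, of which no marker passed. Replicates were numbered in sample order, which pairs nothing. Sequences are from RefSeq, and intervals of single counts are not given because FPKM were tested.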

Additional observations from a re-analysis of the deposited data

Results flagged for a closer look

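Of 120 sets of 4 libraries (10 members in 12 groups), 7 held a library farther from the others than Dixon's 95% limit for 4 samples; chance gives about 1 in 20 such sets. Jun had 17.5 FPKM (626 fragments) in D-Ala CT8 replicate 3, against 4.84 to 6.53 FPKM in the other 3 libraries, and 9.70 FPKM in Vehicle CT12 replicate 3, against 5.93 to 6.34 FPKM. Btg2 had 16.3 FPKM in Vehicle CT0 replicate 1, against 4.57 to 5.33 FPKM. Ier2 was low in D-Ala CT8 replicate 1, at 6.58 FPKM against 9.92 to 10.4 FPKM, and high in Vehicle CT4 replicate 2, at 11.1 FPKM against 8.59 to 8.67 FPKM. Fos had 0.547 FPKM in D-Ala CT8 replicate 1, against 0.292 to 0.328 FPKM, and 0.464 FPKM in Vehicle CT8 replicate 1, against 0.119 to 0.164 FPKM, each of these 2 values resting on 14 fragments. The 7 values came from 6 libraries, since D-Ala CT8 replicate 1 held 2 of them.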

How the results depend on the processing

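As reported, 2 members were called over the 6 times, 2 were rhythmic in vehicle, 0 in D-Ala and 3 with both averaged, and 1 pair of members was correlated. The count over the 6 times stayed at 2 with a pseudocount of 0.1, robust moderation, voom, a covariate for the inner medulla score and without the libraries of CT16, and was 3 with TPM. It was 1 with no filter, with TPM without mitochondrial genes, with no table term, in the second table alone, with the endothelial score and without CT4, CT12 or CT20. It was 0 with quantile normalization, median centring, the first table alone, the adipocyte score, the mitochondrial share and without CT0 or CT8. In the settings that gave 0 members, 0 to 23 of all genes were called, against 259 as reported. At single times 1 call appeared with TPM. In vehicle 1 member was rhythmic with no table term, in each table alone, with the times as a factor and without CT4, CT8, CT12 or CT16; without CT16 that member was Dusp1 (adjusted p = 0.0381), Ier3 and Jun being lost, and with the endothelial score Dusp1 was called too (0.0452). In D-Ala 1 was rhythmic with quantile normalization, median centring, the second table alone, the inner medulla or endothelial score, the mitochondrial share and without CT0. With both averaged 1 was rhythmic in each table alone and without CT4. Dusp1 was also lost with no filter, TPM, no table term and without CT8 or CT12, and Jun without CT16. Correlated pairs numbered 2 with TPM and in the first table, and 0 in the second. Leaving out each library gave 1 to 2 members over the 6 times, 1 to 2 rhythmic in vehicle, 0 to 1 in D-Ala, 2 to 4 with both averaged and 1 to 3 pairs. Over all genes these fits called 93 to 631 over the 6 times.

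Changes near 0 turned their sign. Egr1 was at 0.022 with a pseudocount of 0.1, 0.041 with TPM, 0.049 in the second table, 0.028 with voom, 0.052 without CT0, 0.10 without CT16 and between -0.042 and 0.047 without each library. Junb was at -0.04 with quantile normalization, -0.037 with median centring and with the adipocyte score, -0.021 with the inner medulla score, -0.152 with the endothelial score and -0.025 with the mitochondrial share. Atf3 was at -0.007, -0.041, -0.044, -0.003, -0.021, -0.034 and -0.022 with quantile normalization, median centring, the first table, voom, the adipocyte score, the endothelial score and without CT0. Ier2 was at -0.004, -0.006 and -0.018 with quantile normalization, the endothelial score and the mitochondrial share, Btg2 at -0.001 and -0.059 with the first table and the endothelial score, and Dusp1 at -0.003 and -0.03 with the endothelial score and the mitochondrial share. Ier3 stayed between 0.23 and 0.85 and Nr4a1 between 0.25 and 0.51 in all 69 alternatives. The cause of these changes was not tested. Voom, the scores, the mitochondrial share and leaving out times were chosen after seeing the data; voom called 220 of 15571 genes. No paired analysis was possible because the labels give no replicate numbers. Depth limits Fos and Atf3, with medians of 8 and 15 fragments per library.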

Other observations

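Genes of the heat shock response, which are also induced within minutes, were read in the same comparison over the 6 times. There 1.74% of all genes passed in either direction and 76.3% lay above 0. Of 10 heat shock genes 2 rose in limma, with 9 above 0 and a median log2 change of 0.26. Bag3, a cochaperone of HSP70, had 15.5 ± 4.18 FPKM in D-Ala kidneys and 12.6 ± 2.22 FPKM in vehicle kidneys (0.27 ± 0.05, adjusted p = 0.0115), and Dnajb1, an HSP40 chaperone, had 12.2 ± 4.89 FPKM in D-Ala kidneys and 9.72 ± 2.41 FPKM in vehicle kidneys (0.25 ± 0.06, adjusted p = 0.0207; SD, n = 24 each). Hsph1 and Hspb1 were at 0.57 and 0.47 and did not pass (adjusted p = 0.0827 and 0.116). The summed level of the 10 genes was 708.5 to 1541 FPKM in D-Ala kidneys (median 885.6) and 548.5 to 1308 FPKM in vehicle kidneys (median 938.2), so the median of this sum was lower in D-Ala although most of the genes lay above 0.

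Of 9 glucocorticoid-responsive genes 0 passed in limma, 3 had an unadjusted p under 0.05 and 7 lay above 0, with a median of 0.13. Over all genes 20.5% had such a p and 76.3% lay above 0, with a median of 0.056. Sgk1, a kinase of sodium transport, had 35.3 ± 44.5 FPKM in D-Ala kidneys and 19.9 ± 15.7 FPKM in vehicle kidneys (0.56 ± 0.22, adjusted p = 0.15). Zbtb16, Tsc22d3 and Klf9 were at 0.22, 0.35 and 0.15 (adjusted p = 0.094, 0.156 and 0.514).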
